A study of Mus musculus with 9 samples.

Results

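The genes described here are Vegfa and 8 other genes of blood vessel growth, measured in mouse pancreatic tumour cells that had been grown beside fibroblasts in different states. They are the ligand genes Vegfa, Vegfb, Vegfc and Pgf, the receptor genes Flt1 and Kdr, the co-receptor genes Nrp1 and Nrp2, and Angptl4. The set was selected on gene names and on earlier results of the same table: the lower Vegfa value in iCAF libraries was already known, and which values of the other 8 genes played a part is not recorded. The values of Vegfa are therefore given as a description, and nothing is read from its calls. The p-values of the other genes are not independent evidence. All 9 genes were found among the 41457 genes of the table, and 7 of them passed the filter of at least 1 TPM (a gene's share of the library's transcripts, corrected for gene length) in at least 3 libraries, as did 11704 genes in all. Flt1 and Kdr did not pass.

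The tumour cells were PancOVA, 1 established line, labelled with a proliferation dye and mixed in matrigel with mPSC45 pancreatic stellate cells, also 1 line, here marked by CD90.1. In the iCAF group the stellate cells had first been primed for 48 h with conditioned medium (the label is Tc17-iCAF). In the myCAF group they had been primed for 48 h with rhTGF-β1 at 2 ng/ml (TGFb-myCAF). In the qPSC group, the background control, they were left quiescent. All stellate cells had been made quiescent in matrigel in low serum beforehand, and every co-culture ran for 48 h before the dye-positive cells were sorted and their mRNA sequenced. Each of the 3 groups had 3 libraries, with 38870571 to 45317139 reads implied by the steps between low TPM values. The labels do not say whether the 3 libraries of a group were separate cultures, so the errors may be technical. In bulk RNA, fewer cells of a type and less RNA per cell cannot be told apart.

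Vascular endothelial growth factors (VEGFs) are secreted proteins that bind receptor tyrosine kinases on endothelial cells. The Vegfa protein acts mainly through the receptor that Kdr encodes, whereas the Vegfb and Pgf proteins bind the Flt1 product, which also takes up Vegfa protein with high affinity and can act as a decoy. Neuropilins, the products of Nrp1 and Nrp2, have no kinase of their own and serve as co-receptors for VEGFs and as receptors for class 3 semaphorins. Vegfa transcription is known to rise when oxygen is short, through hypoxia-inducible factors (HIFs), and tumour cells are a common source of the protein. Angptl4 encodes a secreted inhibitor of lipoprotein lipase that is also induced by HIFs and by the lipid-sensing PPAR receptors.

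The 250 bases before the transcription start are shown for the ligand genes Vegfa, Vegfb and Vegfc, because these genes had unlike patterns over the same libraries. The sequences come from RefSeq (GRCm38.p6), in which 8 of the 9 genes had such a window. Capitals mark matches on either strand to a GC box (GGGCGG, or its reverse CCGCCC) or to the core of the element that HIFs bind (ACGTG or GCGTG, or their reverses CACGT and CACGC). A match is a description of the letters, not a site shown to be bound.
Vegfa, chr17:46032378-46032627, minus strand: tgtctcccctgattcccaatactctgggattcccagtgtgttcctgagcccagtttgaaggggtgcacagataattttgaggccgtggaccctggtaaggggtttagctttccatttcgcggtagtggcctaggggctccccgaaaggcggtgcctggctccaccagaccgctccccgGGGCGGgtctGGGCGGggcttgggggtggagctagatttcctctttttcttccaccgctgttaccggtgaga
Vegfb, chr19:6987652-6987901, minus strand: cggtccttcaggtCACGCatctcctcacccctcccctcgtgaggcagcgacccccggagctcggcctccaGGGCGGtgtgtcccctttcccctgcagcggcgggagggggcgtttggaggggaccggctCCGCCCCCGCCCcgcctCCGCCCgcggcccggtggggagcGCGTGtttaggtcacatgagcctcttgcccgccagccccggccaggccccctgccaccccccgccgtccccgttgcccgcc
Vegfc, chr8:54077282-54077531, plus strand: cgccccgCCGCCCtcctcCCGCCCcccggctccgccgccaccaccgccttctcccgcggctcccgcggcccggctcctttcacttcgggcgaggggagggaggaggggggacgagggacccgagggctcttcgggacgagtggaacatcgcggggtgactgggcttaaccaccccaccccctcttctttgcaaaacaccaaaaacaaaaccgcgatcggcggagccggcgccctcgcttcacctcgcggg

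The Vegfa window held 2 GC boxes, 72 and 62 bases before the start counted at their 5′ ends, and 0 hypoxia cores. The Vegfb window held 4 GC boxes and 2 hypoxia cores, while the Vegfc window held 2 and 0. Bases farther upstream were not searched, so a count of 0 does not show that a gene lacks the element. Of 32851 RefSeq promoter windows of the same length, 32.7% held a GC box and 38.6% a hypoxia core, so neither motif is rare in such windows. The start of a shorter Vegfa transcript, within the gene, had a window with 1 GC box and 2 hypoxia cores. In the other windows, the Pgf start farthest upstream had 2 GC boxes and 1 hypoxia core, Flt1 had 3 and 1, Kdr 2 and 2, Nrp1 1 and 1, and Nrp2 5 and 2.

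One library stood apart and is given with and without where a result rests on it. In iCAF replicate 3, 20.73% of the TPM lay in ribosomal protein genes, against 13.93% to 14.84% in the other 8 libraries, and its median log2(TPM + 1) was 3.956 against 4.348 to 4.468. The keratin genes Krt8 and Krt18 were abundant in every library, with Krt8 between 743.9 and 829.9 TPM, but the epithelial adhesion genes Epcam and Cdh1 did not exceed 0.02745 TPM. Of 12 endothelial markers, 11 averaged under 1 TPM, and Emcn was at 0 in all 9 libraries; their summed level was 5.477 to 6.051 TPM in iCAF, 5.772 to 6.572 TPM in myCAF and 5.328 to 6.284 TPM in qPSC libraries, nearly all of it Egfl7. The summed level of 18 fibroblast markers was 962 to 2203 TPM in iCAF libraries, with the lowest value in replicate 3, 1896 to 2213 TPM in myCAF and 2044 to 2214 TPM in qPSC libraries. Most of that sum was Fn1, at 651.7 TPM in iCAF replicate 3 and 1228 to 1646 TPM in the other 8 libraries. None of the 18 was at 0 in all 9 libraries, though Col1a2, Lum, Fap and Tagln averaged under 1 TPM. Of 7 pericyte markers Kcnj8 was at 0 and 4 averaged under 1 TPM. Pdgfrb, also in the fibroblast list, averaged 25.7, 26.84 and 30.95 TPM in iCAF, myCAF and qPSC libraries. Notch3 averaged 11.82, 17.53 and 17.59 TPM, and Mcam 6.642, 7.087 and 5.927 TPM. Of 12 leukocyte markers Cd8a was at 0 and 11 averaged under 1 TPM, while Cd68 averaged 5.75, 5.553 and 6.203 TPM. Ptprc, which encodes the pan-leukocyte antigen CD45, did not exceed 0.003757 TPM.

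Vegfa, the best-known driver of vessel sprouting, was abundant in all libraries and lower in the iCAF group. It is annotated on chr17:46016993-46032369, minus strand (GENCODE M21, GRCm38; the build used for the deposited table is not given in the sources used here). Its level was 60.57, 79.71 and 63.7 TPM in iCAF libraries, 114.2, 142.5 and 125.2 TPM in myCAF libraries, and 121.7, 112.6 and 110.3 TPM in qPSC libraries. Every iCAF library lay below every myCAF and qPSC library, while the myCAF and qPSC values overlapped. The mean was 67.99 ± 10.27 TPM in iCAF, 127.3 ± 14.26 TPM in myCAF, against 114.9 ± 6.034 TPM in qPSC libraries (SD, n = 3 each). On the log2(TPM + 1) scale, iCAF minus qPSC was -0.76 ± 0.12 (SE from limma), which is 1.69-fold lower, and iCAF minus myCAF was -0.90 ± 0.12, or 1.865-fold lower. The myCAF minus qPSC difference was 0.14 ± 0.12. Without iCAF replicate 3 the iCAF differences were -0.72 against qPSC and -0.86 against myCAF. The table gives 1 value per gene, so the splice forms of Vegfa, which differ in how tightly they bind matrix, were not separated.

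With the same fit over all genes, limma with Benjamini-Hochberg adjustment and a threshold of 0.05, Vegfa was the 1 of the 7 genes called in iCAF against qPSC, where 0.598% of all tested genes were called, and again in iCAF against myCAF, where 0.0598% were called. Because Vegfa was chosen from its iCAF values, nothing is read from these calls. In myCAF against qPSC 0 of the 7 genes were called, as were 0 of all 11704 genes (0%). There Vegfc, Pgf and Angptl4 were among 753 genes with an unadjusted p below 0.05 with limma. Vegfc entered the fit only through its myCAF libraries, so nothing is read from its p-value. In the same comparison limma-voom on the implied reads called 5 genes, with 0 of the 7. Without iCAF replicate 3, the shares of all genes called were 1.51% in iCAF against qPSC, 2.83% in myCAF against qPSC, and 0.599% in iCAF against myCAF, and the counts of the 7 genes stayed at 1, 0 and 1. The call of Vegfa in iCAF against qPSC was lost under 12 of 20 alternatives, such as only those 6 libraries, median centring and limma-voom. The call in iCAF against myCAF was lost under 15 of the 20, these included.

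**Figure D1:**
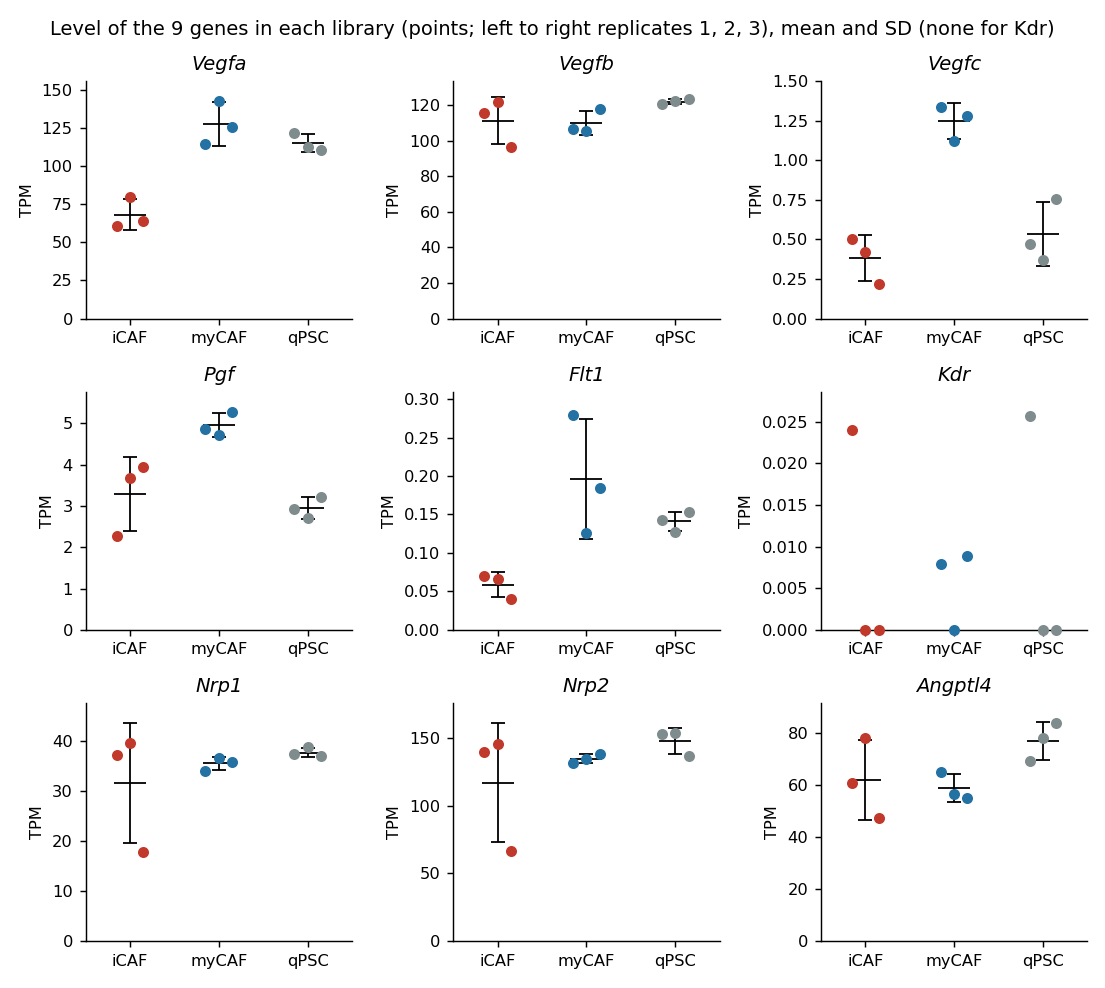
Level of each of the 9 genes in TPM (y axis, linear, from 0, own scale per gene) in the iCAF, myCAF and qPSC libraries; points are the 3 libraries and bars the mean and SD, left out for Kdr. Vegfa lies between 60.57 and 79.71 TPM in iCAF libraries, below all myCAF and qPSC libraries, whereas Nrp1 and Nrp2 are low in iCAF replicate 3 alone.

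Vegfb (chr19:6982473-6987651, minus strand), whose product is linked to cardiac and lipid biology more than to vessel sprouting, lay near the level of Vegfa in qPSC libraries but did not share its pattern. It was at 115.4, 122.0 and 96.44 TPM in iCAF, 106.5, 105.4 and 117.7 TPM in myCAF, and 120.4, 122.1 and 123.4 TPM in qPSC libraries. The iCAF values ran from below the myCAF values up to within the qPSC range, and the myCAF values lay below the qPSC values by a small margin. None of the 3 comparisons passed (limma, adjusted p = 0.40 in iCAF against qPSC, 1.0 in myCAF against qPSC, 0.94 in iCAF against myCAF). The log2 difference was -0.14 ± 0.095, -0.15 ± 0.095 and 0.013 ± 0.095 (SE) in that order.

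The ratio of Vegfa to Vegfb within a library does not depend on that library's total, and it separated the iCAF group. It was 0.5248, 0.6533 and 0.6605 in iCAF, 1.072, 1.352 and 1.064 in myCAF, and 1.011, 0.9222 and 0.8938 in qPSC libraries. The iCAF ratios, iCAF replicate 3 included, were all below those of the other groups, and the myCAF ratios were all above the qPSC ratios. Vegfa was thus the less abundant of the pair in all iCAF libraries and the more abundant in all myCAF libraries. The ratio shows unequal change of the pair, not that Vegfb stayed constant, and it carries the Vegfa value on which the set was chosen, so no test was made.

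Vegfc and Pgf, both scarce, were highest in myCAF libraries. Vegfc, the ligand of lymphatic vessel growth, is annotated on chr8:54077606-54187096. It was at 0.5023, 0.4231 and 0.2214 TPM in iCAF libraries (17, 14 and 9 implied reads), 1.339, 1.119 and 1.278 TPM in myCAF libraries (46, 34 and 39 reads), and 0.4727, 0.3674 and 0.7584 TPM in qPSC libraries (15, 11 and 27 reads). All myCAF libraries lay above all others, and Vegfc passed the filter only through them. The myCAF mean of 1.245 ± 0.1135 TPM was 2.337 times the qPSC mean of 0.5328 ± 0.2024 TPM (SD, n = 3 each). On the log2(TPM + 1) scale, which understates changes of low genes, the difference was 0.56 ± 0.14 (SE) and was not called. Against myCAF the iCAF difference was -0.70 ± 0.14, and against qPSC it was -0.15 ± 0.14, neither of them called. Because Vegfc entered the fit only through its myCAF libraries, its adjusted p-values are not given and nothing is read from them.

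Pgf, the placental growth factor gene (chr12:85166635-85177790, minus strand), was at 2.268, 3.671 and 3.944 TPM in iCAF, 4.861, 4.72 and 5.282 TPM in myCAF, and 2.924, 2.705 and 3.223 TPM in qPSC libraries. The myCAF libraries lay above all others, and the iCAF libraries spanned the qPSC range. The myCAF minus qPSC difference was 0.59 ± 0.16 on the log2 scale (limma, adjusted p = 0.31). It did not pass in the fit of all 9 libraries, but passed with the 6 libraries of this comparison alone (limma, adjusted p = 0.023), where 378 of all genes were called, and without iCAF replicate 3 the adjusted p was 0.051 with limma. The iCAF differences were -0.49 ± 0.16 against myCAF (limma, adjusted p = 0.20) and 0.099 ± 0.16 against qPSC (limma, adjusted p = 0.70). The sign of the difference from qPSC turned without iCAF replicate 3, at -0.014.

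Fibroblast markers moved in parts of the same comparisons. Of 14 tested fibroblast markers, 4 had a negative difference in myCAF against qPSC, 13 in iCAF against qPSC and 13 in iCAF against myCAF. In iCAF against myCAF Postn, a gene of matrix-producing cells, was lower (limma, adjusted p = 0.033). The median difference of all tested genes was -0.15 in both iCAF comparisons and 0.0058 in myCAF against qPSC. These sign counts include iCAF replicate 3 and were not made without it. The summed level of the 18 fibroblast markers, most of it Fn1, was 962 TPM in that library, against 1816 and 2203 TPM in iCAF replicates 1 and 2. Within the myCAF group replicate 2 had the least Col1a1, which was at 154.6, 68.15 and 157.7 TPM in replicates 1, 2 and 3. In that library Pgf was at 4.72 TPM and Vegfc at 1.119 TPM, the lowest of the 3 for each. Pgf was at 4.861 and 5.282 TPM in myCAF replicates 1 and 3. Vegfa was highest of the 3 in myCAF replicate 2, at 142.5 TPM. Not every marker of the list was lowest there. In myCAF replicates 1, 2 and 3 Fn1 was at 1228, 1358 and 1370 TPM, and Fbln1 at 132.8, 134.0 and 127.3 TPM. Col1a1 was at 47.21, 72.94 and 28.8 TPM in iCAF and 53.99, 57.92 and 69.93 TPM in qPSC libraries. The part of fibroblast transcripts in the levels of the 9 genes was not tested.

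**Figure D2:**
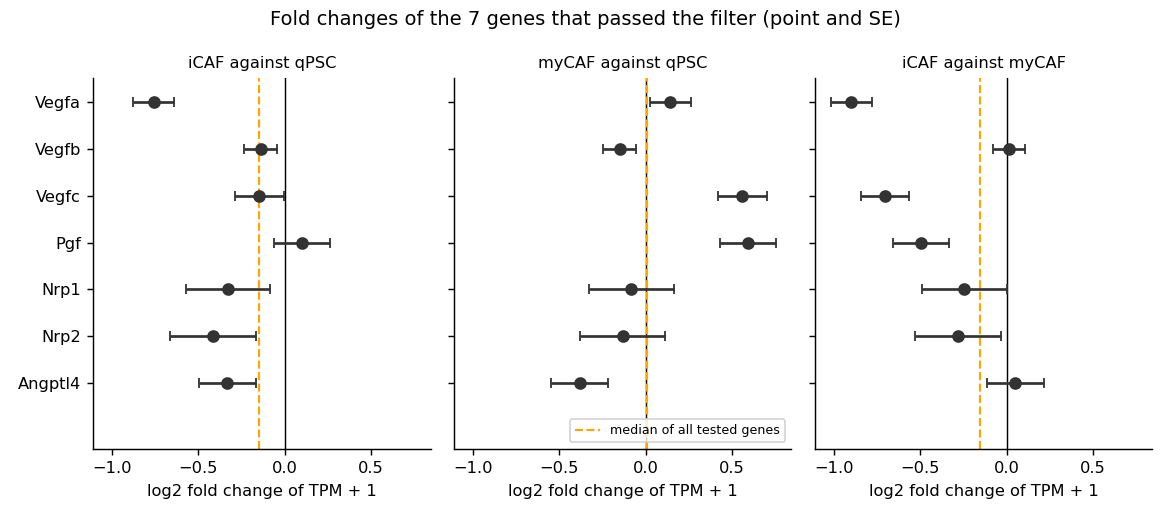
Log2 difference of TPM + 1 (x axis) with its standard error for the 7 genes that passed the filter, one panel per comparison; the dashed line is the median of all tested genes. Vegfa lies at -0.76 and -0.90 in the iCAF comparisons, and Vegfc and Pgf lie at 0.56 and 0.59 in myCAF against qPSC. Vegfc entered the fit only through its myCAF libraries.

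The ligand gene Vegfd, whose product like that of Vegfc acts on lymphatic vessels, was added to describe the ligand pool. It was at 26.33 ± 4.775 TPM in iCAF, 31.42 ± 2.319 TPM in myCAF, against 31.31 ± 0.8633 TPM in qPSC libraries (SD, n = 3 each). The 5 ligand genes summed to 209.3 ± 25.8 TPM in iCAF, 274.8 ± 12.13 TPM in myCAF, against 271.6 ± 3.609 TPM in qPSC libraries. Vegfa made up 32.48 ± 2.586% of that sum in iCAF, 46.25 ± 3.464% in myCAF and 42.28 ± 1.659% in qPSC libraries. Vegfb made up 53.22%, 40.02% and 44.91% of it in the same order of groups, so its mean share was above that of Vegfa in iCAF and, by less, in qPSC libraries. Pgf and Vegfc together were a minor share everywhere, at most 2.122% and 0.5129% in a single library.

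**Figure D3:**
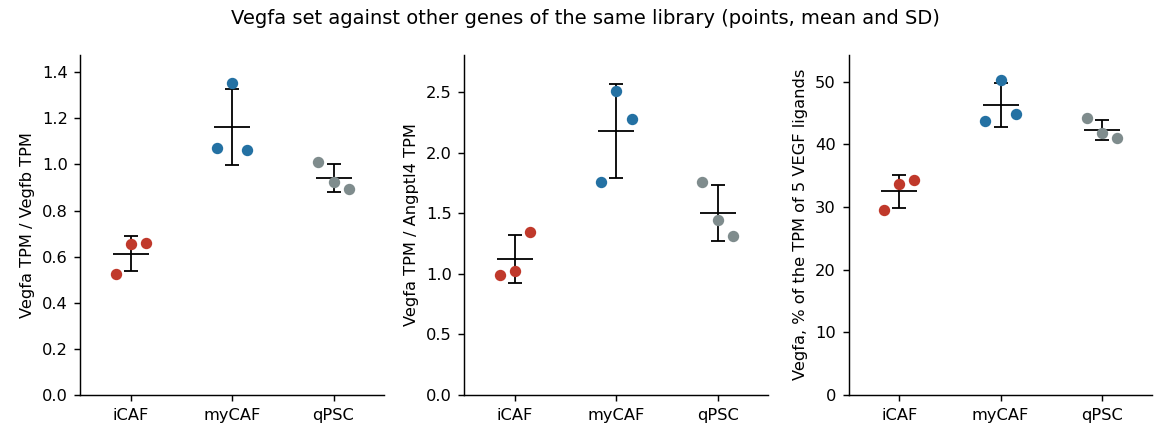
Vegfa relative to Vegfb (left), to Angptl4 (middle) and as a percentage of the summed TPM of Vegfa, Vegfb, Vegfc, Vegfd and Pgf (right) in iCAF, myCAF and qPSC libraries; points are libraries and bars the mean and SD, with y axes from 0. The Vegfa to Vegfb ratio is 0.5248 to 0.6605 in iCAF libraries and at least 0.8938 in all others.

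The kinase receptors were at or near the limit of detection in these cells. Kdr (chr5:75932827-75978458), which encodes the main signalling receptor of Vegfa protein, had 3, 0 and 0 implied reads in iCAF, 1, 0 and 1 in myCAF, and 3, 0 and 0 in qPSC libraries, where 3 reads correspond to 0.02002 to 0.02717 TPM. No difference in Kdr was detectable at this depth. The related lymphatic receptor gene Flt4 had 0 to 4 reads per library. These floors cover counting error only.

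Flt1 (chr5:147561604-147726011) was low but counted in every library. It was at 0.06966, 0.06577 and 0.04016 TPM in iCAF libraries (13, 12 and 9 reads), 0.2797, 0.1254 and 0.1843 TPM in myCAF libraries (53, 21 and 31 reads), and 0.1429, 0.1272 and 0.1528 TPM in qPSC libraries (25, 21 and 30 reads). All iCAF libraries lay below all others, and the myCAF values spanned the qPSC values. The iCAF mean was 0.05853 ± 0.01603 TPM and the qPSC mean 0.141 ± 0.01293 TPM (SD, n = 3 each). With limma-voom on the implied reads of all genes without a filter, the log2 difference was -1.19 ± 0.39 in iCAF against qPSC (adjusted p = 0.30), 0.41 ± 0.33 in myCAF against qPSC (adjusted p = 0.92) and -1.60 ± 0.38 in iCAF against myCAF (adjusted p = 0.14), so none passed. Pecam1 and Cdh5, defining endothelial genes, averaged at most 0.03269 and 0.6106 TPM in any group. Whether the reads stem from full-length or soluble Flt1 was not separated in the table.

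The co-receptors were well expressed and of similar level in 8 libraries. Nrp1 (chr8:128358604-128503363) was at 37.35, 39.72 and 17.81 TPM in iCAF, 34.07, 36.7 and 35.96 TPM in myCAF, and 37.42, 38.78 and 36.99 TPM in qPSC libraries. Nrp2 (chr1:62703285-62818695) was at 139.6, 145.3 and 66.55 TPM in iCAF, 131.4, 134.4 and 138.4 TPM in myCAF, and 153.3, 153.7 and 137.1 TPM in qPSC libraries. For both genes iCAF replicate 3 had less than any other library. Without it the iCAF difference changed sign for Nrp1 in both comparisons and for Nrp2 against myCAF. For Nrp2 against qPSC it kept its sign and shrank. The Nrp1 difference was -0.33 ± 0.24 for iCAF against qPSC (limma, adjusted p = 0.43), and 0.029 without that library. The Nrp2 difference was -0.42 ± 0.25 (limma, adjusted p = 0.37), and -0.053 without it. Against myCAF the iCAF differences were -0.24 ± 0.24 for Nrp1 and -0.28 ± 0.25 for Nrp2 (limma, adjusted p = 0.53 and 0.48), and 0.11 and 0.080 without that library. In myCAF against qPSC they were -0.083 and -0.13 (limma, adjusted p = 1.0 for both).

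The ratio of Nrp2 to Nrp1 hardly moved. It was 3.711 ± 0.0465 in iCAF, 3.788 ± 0.1103 in myCAF and 3.922 ± 0.1974 in qPSC libraries (SD, n = 3 each), iCAF replicate 3 included, so both transcripts were lower in that library to a like degree. The neuropilins' other partners, 9 tested class 3 semaphorin and plexin genes, had 0 calls in every comparison with limma (9 of 9 negative in iCAF against qPSC, 9 of 9 in myCAF against qPSC and 7 of 9 in iCAF against myCAF), with an unadjusted p below 0.05 for 1, 0 and 0 of them. The medians of these genes were -0.26, -0.17 and -0.26. Without iCAF replicate 3 the median was -0.15 in iCAF against qPSC, and in iCAF against myCAF it turned to 0.037, with 3 of 9 negative. The 2 with the smallest p were Plxna3, a plexin that signals for neuropilins, at 15.44, 20.77 and 20.87 TPM in iCAF, myCAF and qPSC libraries, and Sema3f, a neuropilin ligand that restrains vessels, at 17.22, 16.13 and 20.24 TPM. Without iCAF replicate 3, Sema3c was called lower in myCAF than in qPSC libraries, at 77.88 and 93.32 TPM, where 2.83% of all tested genes were called.

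Angptl4, on chr17:33773750-33781830, had a pattern unlike that of Vegfa although both are known HIF targets. It was at 61.08, 78.06 and 47.25 TPM in iCAF, 65.03, 56.64 and 55.02 TPM in myCAF, and 69.24, 78.09 and 84.01 TPM in qPSC libraries. All myCAF values lay below all qPSC values, and the iCAF values spanned the myCAF values and overlapped the qPSC values. The myCAF minus qPSC difference was -0.38 ± 0.16 and did not pass (limma, adjusted p = 0.75, and 0.089 without iCAF replicate 3). The iCAF minus qPSC difference was -0.33 ± 0.16 (limma, adjusted p = 0.33) and iCAF minus myCAF 0.051 ± 0.16 (limma, adjusted p = 0.85). The ratio of Vegfa to Angptl4 was 1.12 ± 0.1978 in iCAF, 2.182 ± 0.3881 in myCAF and 1.504 ± 0.229 in qPSC libraries (SD, n = 3 each).

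Over the whole set, groups did not overlap for 2 of the 9 genes in iCAF against qPSC (Vegfa and Flt1, both lower), where this held for 27.8% of all tested genes. In myCAF against qPSC it held for 5 of 9, Vegfc and Pgf higher and Vegfb, Nrp1 and Angptl4 lower, where the share of all tested genes was 23.9%. In iCAF against myCAF it held for 4 of 9 (Vegfa, Vegfc, Pgf and Flt1, all lower), against 22.8% of all tested genes. The median log2 difference of the 7 genes was -0.33 in iCAF against qPSC, -0.083 in myCAF against qPSC and -0.28 in iCAF against myCAF, beside -0.15, 0.0058 and -0.15 over all tested genes. The iCAF medians rest on iCAF replicate 3: without it they were -0.053 against qPSC, with 6 of 7 negative, and 0.080 against myCAF, with 3 of 7 negative, beside -0.030 and -0.029 over all genes. Flt1 and Kdr are among the 9 genes but did not pass the filter, whereas the shares are over genes that passed. The counts over 9 genes and the shares thus differ in basis. Vegfc, included in the counts and medians, passed only through its myCAF libraries. The comparisons share libraries, so these counts are not independent of each other.

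A list of known HIF target genes offered a comparison for Vegfa. Angptl4, also a known target, was not in this list. The Angptl4 difference was -0.33 in iCAF against qPSC, -0.38 in myCAF against qPSC and 0.051 in iCAF against myCAF. Of 25 tested targets other than Vegfa, 22 had a negative difference in iCAF against qPSC, with a median of -0.25, and 1 passed: Ddit4, an inhibitor of mTOR signalling, at 87.46 ± 9.797 TPM in iCAF, against 132.3 ± 6.109 TPM in qPSC libraries (SD, n = 3 each; limma, adjusted p = 0.044). In myCAF against qPSC, 24 were positive with a median of 0.46, and 0 passed. In iCAF against myCAF all 25 were negative with a median of -0.62, and 0 passed. Over all tested genes the medians in these 3 comparisons were -0.15, 0.0058 and -0.15. The shares of all tested genes that passed were 0.598%, 0% and 0.0598%. An unadjusted p below 0.05 was reached by 7 (all lower), 14 (all higher) and 19 (all lower) of the 25 in iCAF against qPSC, myCAF against qPSC and iCAF against myCAF, where 1851, 753 and 2098 of all 11704 genes reached it. With limma-voom on the implied reads 0 of the 25 passed in any comparison, Ddit4 included. Without iCAF replicate 3 the medians were -0.17, 0.46 and -0.58, and the counts that passed were 1, 2 and 2: Ddit4 lower in iCAF than in qPSC, Bnip3l and Ero1l higher in myCAF than in qPSC, and Ddit4 and Vldlr lower in iCAF than in myCAF. Over all tested genes the medians were then -0.030, 0.0057 and -0.029, and 1.51%, 2.83% and 0.599% passed. Bnip3l, which acts in mitophagy, was at 167.7 TPM in myCAF, against 120.6 TPM in qPSC libraries, and Ero1l, an oxidase of protein folding, at 290.6 and 145.2 TPM.

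Vegfa lay towards the low end of these targets in all 3 comparisons, which share libraries. The set was chosen with the lower Vegfa value in iCAF libraries known, so the Vegfa rank is a description only. In iCAF against qPSC its difference of -0.76 was below those of 23 of the 25, and Lox, which crosslinks collagen, had the lowest at -1.05. In myCAF against qPSC its difference of 0.14 was below 22 of the 25, which reached 1.09 for Lox. In iCAF against myCAF its difference of -0.90 was below 20 of the 25, and Lox had the lowest at -2.14. The targets of glucose uptake and glycolysis were uneven in iCAF against qPSC: the difference was -0.039 for Pgk1, -0.018 for Ldha and -0.034 for Pfkfb4, but -0.27 for Slc2a1, -0.28 for Hk2 and -0.49 for Pfkfb3, and none of these passed. Of 9 tested genes for HIF subunits and oxygen sensors, 0 passed in any comparison with limma (0, 1 and 3 with an unadjusted p below 0.05); Hif1a was at 86.4, 106.6 and 107.1 TPM in iCAF, myCAF and qPSC libraries, and the 2 with the smallest p were Egln1, an oxygen-sensing hydroxylase, at 119.2, 173.6 and 134.5 TPM, and Arnt2, a HIF partner, at 0.8286, 1.376 and 1.144 TPM. The medians of these 9 genes were -0.20, 0.078 and -0.31 in iCAF against qPSC, myCAF against qPSC and iCAF against myCAF, and -0.007 and -0.052 in the iCAF comparisons without iCAF replicate 3.

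**Figure D4:**
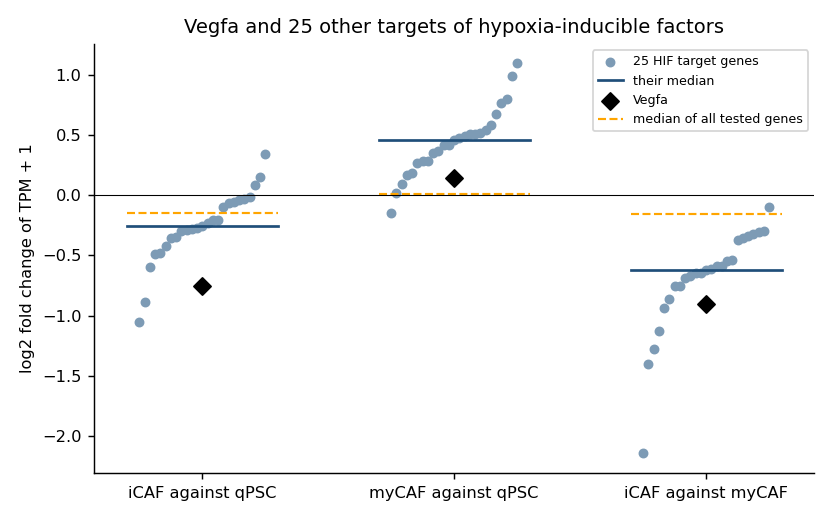
Log2 difference of TPM + 1 (y axis) of 25 HIF target genes (grey points, in order of size, with their median as a solid line) and of Vegfa (diamond) in each comparison; the dashed line is the median of all tested genes. Vegfa is at -0.76 where the targets' median is -0.25 (iCAF against qPSC), and at 0.14 where it is 0.46 (myCAF against qPSC). The lower Vegfa value in iCAF libraries was known when the set was chosen.

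Genes of other known regulators of Vegfa and of Angptl4 were not called with all 9 libraries in the fit. Of 5 genes whose proteins bind Vegfa mRNA, 5 were negative in iCAF against qPSC (median -0.44), 4 in myCAF against qPSC (median -0.049) and 4 in iCAF against myCAF (median -0.25), and 0 passed with limma (3, 0 and 2 with an unadjusted p below 0.05). Zfp36l1 and Zfp36l2, which encode proteins that promote decay of AU-rich mRNAs, were at 55.94 and 133.3 TPM in iCAF, 78.12 and 153.2 TPM in myCAF, and 91.66 and 185.7 TPM in qPSC libraries, and Zfp36l1 was called lower in iCAF than in qPSC libraries once iCAF replicate 3 was left out. Without that library 3 of the 5 were negative in iCAF against qPSC (median -0.25), and in iCAF against myCAF 2 of the 5, with a median turned to 0.023. In iCAF against qPSC the fit without that library called 1.51% of all tested genes. Of 9 other transcription factor genes linked to Vegfa, 0 passed with limma (4, 1 and 3 with an unadjusted p below 0.05), and the medians were -0.27, -0.0018 and -0.30 in iCAF against qPSC, myCAF against qPSC and iCAF against myCAF, with -0.11 and -0.13 in the iCAF comparisons without iCAF replicate 3. Egr1, an immediate early factor, was at 76.93, 116.2 and 148.2 TPM in iCAF, myCAF and qPSC libraries, and Atf4, of the stress response, at 721.1, 884.9 and 776.3 TPM. Among 8 PPAR receptors and targets, which bear on Angptl4, 0 passed with limma (1, 1 and 0 with an unadjusted p below 0.05) and the medians were -0.085, 0.031 and -0.075, which turned to 0.032 and 0.062 in the iCAF comparisons without iCAF replicate 3. Plin2, a lipid droplet gene, was at 281.6, 302.1 and 332.2 TPM, and Acaa2, of fatty acid oxidation, at 85.62, 77.88 and 88.06 TPM.

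Beyond the VEGF family, 1 vessel-related gene passed with all 9 libraries in the fit. Of 16 other angiogenic factors 0 passed with limma (3, 3 and 5 with an unadjusted p below 0.05), with medians of -0.18, 0.059 and -0.21 in the 3 comparisons in the order used above, and -0.10 and -0.13 in the iCAF comparisons without iCAF replicate 3. Cxcl12 was at 1.562, 5.518 and 3.898 TPM and Apln, the apelin gene, at 34.73, 52.16 and 40.09 TPM in iCAF, myCAF and qPSC libraries. Of 12 angiogenesis inhibitors, 11 were negative in iCAF against qPSC (median -0.32) and 1 passed: Cxcl10, an interferon-induced chemokine that also restrains vessel growth, was at 66.42 TPM in iCAF, against 230.3 TPM in qPSC libraries (limma, adjusted p = 0.011). The inhibitors' medians were -0.051 in myCAF against qPSC and -0.22 in iCAF against myCAF, with 0 passing with limma (3 and 6 with an unadjusted p below 0.05); without iCAF replicate 3, the iCAF medians were -0.19 against qPSC and -0.17 against myCAF, Sparc was called higher in myCAF than in qPSC libraries (236.2 and 198.4 TPM) and Cxcl10 lower in iCAF than in myCAF libraries. Of 5 tested angiopoietin and angiopoietin-like genes, Angptl4 among them, 0 passed with limma (0, 2 and 1 with an unadjusted p below 0.05; medians -0.20, 0.0041 and -0.16, with -0.13 and 0.013 in the iCAF comparisons without iCAF replicate 3), and Angptl6 was at 2.166, 4.244 and 2.255 TPM in iCAF, myCAF and qPSC libraries. Of 8 genes that process VEGFs or hold them in matrix, 0 passed with limma (4, 2 and 2 with an unadjusted p below 0.05; medians -0.32, -0.003 and -0.23). The medians of these 8 without iCAF replicate 3 were -0.10 in iCAF against qPSC and -0.0013 in iCAF against myCAF, with 5 and 4 negative, where 8 and 6 were negative with it. The matrix proteases Mmp2 and Mmp9 were at 18.06 and 7.434 TPM in iCAF, 65.5 and 7.141 TPM in myCAF, and 44.25 and 10.98 TPM in qPSC libraries. Mmp9 and Sdc1 were called lower in myCAF than in qPSC libraries without iCAF replicate 3. With limma-voom on the implied reads, Cxcl10 in iCAF against qPSC was the 1 gene called in all of these lists. Over all tested genes limma called 0.598%, 0% and 0.0598% in the 3 comparisons in the order used above. Without iCAF replicate 3 it called 1.51%, 2.83% and 0.599%.

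The genes whose values ran closest to those of Vegfa were found by the root mean square difference of log2(TPM + 1), each gene centred on its own mean over the 9 libraries, among 9141 named genes averaging at least 5 TPM. Vegfa's own values had a root mean square of 0.415 on this scale. The closest were Per1, a circadian clock gene (0.1386), Txnip, an inhibitor of thioredoxin (0.1404), Lipg, the endothelial lipase gene (0.142), Spry2, a feedback inhibitor of receptor tyrosine kinases (0.1516), and Ddit4 (0.1573). Inhba, an activin subunit, Trib3, a stress-induced pseudokinase, and Fam110c followed at 0.162, 0.1637 and 0.1646. Txnip was at 21.73 ± 3.824 TPM in iCAF, 47.62 ± 3.246 TPM in myCAF, against 44.5 ± 4.088 TPM in qPSC libraries (SD, n = 3 each). With iCAF replicate 3 left out of the measure, all 8 stayed among the 15 closest, led by Ddit4, Trib3 and Txnip. These genes were picked for their likeness to Vegfa over 9 libraries, so their p-values from the fit are not independent evidence and are not given here.

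**Figure D5:**
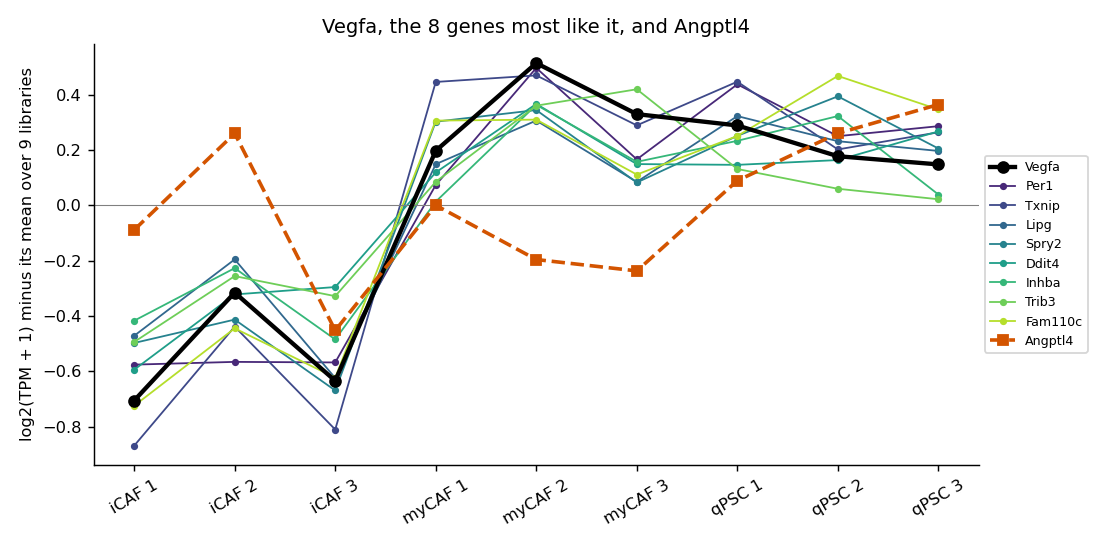
Log2(TPM + 1) minus each gene's mean over the 9 libraries (y axis) for Vegfa (thick black), the 8 genes closest to it (thin lines) and Angptl4 (dashed), by library (x axis). Vegfa and its 8 closest genes lie below 0 in all iCAF libraries and above 0 in all others, while Angptl4 lies above 0 in iCAF replicate 2 and below 0 in iCAF replicates 1 and 3.

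The genes closest to Angptl4, whose own root mean square was 0.2546, were Fam122a (0.0901), Tlnrd1 (0.1027) and Il4ra (0.1084), the last a cytokine receptor subunit. Fam122a was at 34.59 ± 8.338 TPM in iCAF, 32.3 ± 0.6512 TPM in myCAF, against 43.44 ± 5.171 TPM in qPSC libraries (SD, n = 3 each). None of the 8 genes closest to Angptl4 was among the 8 closest to Vegfa.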

How the data were processed

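Messenger RNA of sorted PancOVA cells was measured in 3 libraries per group, with groups and replicate numbers taken from the sample titles. The authors deposited 1 table, in TPM, of 41457 gene symbols. The submitters' processing notes list Salmon, DESeq2 and R 4.0.1 without saying what each did, and the build is not given in the sources used here. Each TPM value is relative to each library's total, so a library of unusual composition moves every other gene in it. A single GENCODE M21 gene model (GRCm38), the source of coordinates and exon lengths, was found for 98.85% of symbols. TPM times exon length came in whole steps, within 0.05 reads, for 97.81% to 98.06% of genes under 200 reads, from which the implied reads were taken.

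Differences were fitted with limma 3.58.1 (R 4.3.3, with a mean-variance trend) on log2(TPM + 1) for the 11704 genes at 1 TPM or more in 3 or more libraries. All 9 libraries entered 1 fit with group as the only term, and p-values were Benjamini-Hochberg adjusted over all of them. Fold changes on this scale understate changes of low genes. The members and gene lists were chosen with earlier results of these data known. From each list, called genes (up to 4) were named, or else the 2 with the smallest p; Hif1a, Lox, the glycolysis genes, genes called only without iCAF replicate 3 and the markers given by value were chosen after their values were seen. The fit was tested on simulated data with equal noise in every library and no outlying one, so that test does not cover iCAF replicate 3. Alternatives were another pseudocount, other filters, median centring, only the 6 libraries compared, a replicate block, limma without the trend, limma-voom on implied reads and each library left out; combinations without iCAF replicate 3 and limma-voom with no filter were added after seeing the data. Tables and plots were made in Python 3.11.15 (pandas 2.3.3, matplotlib 3.10.9).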

Additional observations from a re-analysis of the deposited data

How the results depend on the processing

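Vegfa kept its direction in iCAF against qPSC (-0.88 to -0.56) and in iCAF against myCAF (-1.02 to -0.70) under all 20 alternatives, but not its call. The gene was chosen with its lower iCAF value in these libraries known, so neither the direction nor the calls are evidence. For iCAF against qPSC the count of the 9 genes called was 0, not 1, with no filter, median centring, only the 6 libraries compared, the replicate block, and limma-voom with or without a filter, and for iCAF against myCAF it was 0 under the same settings and also with a pseudocount of 0.1, with at least 1 TPM in every library and without the trend. Leaving out single libraries gave 0 to 1 in both. For myCAF against qPSC the count was 1 (Pgf) with only the 6 libraries compared and, without iCAF replicate 3, with median centring or limma-voom, and otherwise 0. The cause was not tested. With 20 alternatives, the all-gene counts ranged over 0 to 194, 0 to 378 and 0 to 281 in iCAF against qPSC, myCAF against qPSC and iCAF against myCAF.

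Signs that turned all belonged to differences that did not pass. Median centring moved the median of all genes in iCAF against qPSC to 0.047, against -0.15, and gave 0.060 for Vegfb and 0.052 for Vegfc. With single libraries left out, iCAF against qPSC ranged from -0.53 to 0.029 for Nrp1, -0.014 to 0.28 for Pgf, and iCAF against myCAF from -0.13 to 0.23 for Angptl4, -0.44 to 0.11 for Nrp1, -0.48 to 0.080 for Nrp2 and -0.056 to 0.11 for Vegfb. Without iCAF replicate 3 and with median centring, iCAF against qPSC was 0.086 for Nrp1, 0.0037 for Nrp2 and 0.018 for Vegfb, and iCAF against myCAF 0.17 for Nrp1 and 0.14 for Nrp2; with limma-voom, iCAF against qPSC was 0.045 for Nrp1 and -0.020 for Pgf, and iCAF against myCAF 0.13 for Nrp1 and 0.0996 for Nrp2.

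Deviations of same-numbered libraries from their group means correlated at r from -0.35 to 0.25. Libraries with different numbers were not compared, so this does not settle whether the numbers pair libraries. With the replicate block 0 of the 9 genes and 22, 0 and 0 of all genes were called. At 9 to 53 reads per library, Vegfc and Flt1 carry wide counting error, and Kdr is at the floor.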
